A study of Mus musculus with 20 samples.

Results

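The expression of 9 genes that mark dendritic cells, of 37620 genes counted, was followed in bulk mouse bone marrow. They were taken by symbol: the 5 plasmacytoid genes *Siglech*, *Ccr9*, *Pacsin1*, *Tcf4* and *Runx2*, and the 4 conventional genes *Cd209a*, *Xcr1*, *Itgax* and *Zbtb46*. Their measured values played no part in the choice by symbol, but the list was drawn up with earlier results of these data known. The marrow came from recipient mice that had been transplanted with donor marrow carrying a doxycycline-inducible transgene, either U2AF1(S34F)/rtTA, a splicing factor with the mutation found in myelodysplastic syndromes, or U2AF1(WT)/rtTA, which controls for overexpression. The marrow of several donors was pooled before transplantation, the recipients were lethally irradiated mice without a transgene, and every group ate doxycycline chow (625 ppm) for 7 days. On the last 5 of these days the mice received sudemycin D6 (a small molecule whose target is SF3B1, part of the spliceosome) or vehicle through a jugular catheter. Each transgene was given with vehicle and with the drug, making 4 groups of 5 mice. They are taken below in the order U2AF1(WT) with vehicle, then with drug, and U2AF1(S34F) with vehicle, then with drug. Only the donor-derived blood cells carried a transgene, so cells left from the host, including bone and stroma, did not. Donors and recipients were young adult mice.

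Plasmacytoid dendritic cells sense viral nucleic acids and release type I interferon, and conventional dendritic cells take up, process and present antigen to T cells. Both arise in bone marrow from progenitors that depend on the cytokine receptor FLT3. The transcription factor TCF4 (E2-2) drives and maintains the plasmacytoid fate, RUNX2 acts with it in the maturation and exit of these cells, SIGLECH is a surface lectin of plasmacytoid cells, CCR9 is a homing receptor, and PACSIN1 is an endocytic adaptor. XCR1 marks the conventional cells that cross-present antigen (cDC1), CD209A is a lectin of monocyte-derived and cDC2 cells, ITGAX is CD11c, and ZBTB46 is a factor of the conventional lineage. None is fully private to dendritic cells: *Itgax* is also made by NK cells, monocytes and macrophages, *Tcf4* by B cells, *Ccr9* by early lymphoid cells and *Runx2* by osteoblasts.

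On NCBI build 37, *Siglech* lies at chr7:63023548-63034295, *Ccr9* at chr9:123587557-123691089, *Pacsin1* at chr17:27792454-27848051, *Runx2* at chr17:44632936-44951746, *Cd209a* at chr8:3743395-3748984, *Xcr1* at chr9:123761436-123771246, *Itgax* at chr7:135273061-135294171 and *Zbtb46* at chr2:181122467-181194131. *Ccr9* shares its span in the annotation with other genes, among them *Gm17200* on the same strand and *Lztfl1* on the other, so its counts are uncertain where these overlap. Because TCF4 binds E-boxes, the letters CANNTG, the 250 bases before the RefSeq start (GRCm38.p6) of 4 members are printed, with every E-box in capitals: the plasmacytoid receptors and adaptor, and *Zbtb46*, which has the most. An annotated splice junction, with reads in most mice, joins an upstream exon to the base just after the *Zbtb46* window. For transcripts that use it, the *Zbtb46* window is the end of an intron and not a promoter.
*Siglech* (chr7:55767934-55768183, + strand): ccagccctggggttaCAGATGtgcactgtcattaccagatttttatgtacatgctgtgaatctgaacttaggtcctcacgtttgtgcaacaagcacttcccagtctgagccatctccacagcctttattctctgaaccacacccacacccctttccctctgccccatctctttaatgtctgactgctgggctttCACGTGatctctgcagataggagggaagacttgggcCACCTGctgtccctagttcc
*Ccr9* (chr9:123766961-123767210, + strand): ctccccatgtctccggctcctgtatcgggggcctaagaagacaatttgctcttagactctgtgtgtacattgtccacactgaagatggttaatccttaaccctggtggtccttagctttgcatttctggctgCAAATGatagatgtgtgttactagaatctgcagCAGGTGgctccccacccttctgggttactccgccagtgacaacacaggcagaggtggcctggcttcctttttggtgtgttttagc
*Pacsin1* (chr17:27684989-27685238, + strand): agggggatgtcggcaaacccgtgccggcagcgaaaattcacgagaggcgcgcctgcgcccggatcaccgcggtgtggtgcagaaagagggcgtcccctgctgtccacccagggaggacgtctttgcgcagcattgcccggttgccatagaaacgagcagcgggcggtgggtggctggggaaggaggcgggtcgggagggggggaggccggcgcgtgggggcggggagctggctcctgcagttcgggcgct
*Zbtb46* (chr2:181424389-181424638, - strand): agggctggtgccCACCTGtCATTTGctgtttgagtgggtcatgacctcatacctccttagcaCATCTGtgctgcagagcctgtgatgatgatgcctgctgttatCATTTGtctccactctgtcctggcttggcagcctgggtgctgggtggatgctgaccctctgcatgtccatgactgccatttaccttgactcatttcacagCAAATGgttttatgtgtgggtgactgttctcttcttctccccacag

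The windows held 3 E-boxes for *Siglech*, 2 for *Ccr9*, 5 for *Zbtb46* and 0 for *Pacsin1*, and at least 1 was found in 66.2% of the 32536 RefSeq promoters of the same length. *Cd209a* had 2, *Xcr1* and *Runx2* had 1 each, and *Itgax* had 0. The letters CAGGTG (or CACCTG on the other strand) were found once each for *Siglech*, *Ccr9* and *Zbtb46* and in 17.3% of all promoters, and CAGCTG in none of the 8 and in 13.1% of all. The RUNX letters TGTGGT were found once each for *Siglech*, *Pacsin1* and *Runx2*, against 14% of all promoters. These matches are descriptions of letters on both strands, not binding sites. The *Pacsin1* and *Runx2* counts describe starts that few reads used. The junction from this *Pacsin1* start had 3 reads, all in vehicle-treated U2AF1(S34F) mouse 3. Junctions from a start further upstream had reads in more mice. The *Runx2* window precedes its distal start. Reads joining that start to later exons numbered 16 in vehicle-treated U2AF1(WT) mice, beside 1175 on the junction leaving the proximal start exon. The *Zbtb46* E-boxes lie in what is intron for some transcripts, as given above.

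Counts on genes summed to between 41145892 and 62138138 a mouse (median 51836276), and CPM are counts per 1000000 with TMM scaling throughout. A gene was called at a false discovery rate (FDR) under 10%. *Tcf4* lies on chromosome 18. Levels of different genes can be compared only per length. In CPM per kb of annotated exon, averaged over the 4 groups, *Itgax* was highest at 11.9 (single mice 7.09 to 17.9), followed by *Tcf4* at 3.15 (1.79 to 3.96), *Runx2* at 3.01 (1.71 to 5.20), *Siglech* at 1.98 (0.575 to 5.62), *Cd209a* at 0.937 (0.0605 to 2.83), *Ccr9* at 0.480 (0.220 to 1.02), *Zbtb46* at 0.325 (0.173 to 0.519), *Pacsin1* at 0.229 (0.0543 to 0.488) and *Xcr1* at 0.0551 (0.0196 to 0.112). Only for *Itgax* did the range over all mice lie clear of that of its neighbour, and the ranges of all other neighbours in this order overlapped. Within each mouse, *Siglech* was still above *Cd209a*, and *Ccr9* above *Zbtb46*. No member was at 0 in any mouse, but *Xcr1* rested on 4 to 27 reads a mouse, so its values are coarse.

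Some features of the libraries touch the comparisons. *Xist* was at 879 to 1593 CPM in U2AF1(WT) mice and at most 0.145 CPM in U2AF1(S34F) mice, and the Y-linked *Ddx3y* had 0 reads in the former and 39.3 CPM or more in the latter, so genotype and sex-linked expression cannot be told apart in any genotype comparison. The summed CPM of 10 B cell markers was low in U2AF1(WT) vehicle mouse 2 (47.8, against a group median of 136), U2AF1(WT) sudemycin mice 8 and 9 (40.3 and 27.6, against 149) and U2AF1(S34F) vehicle mouse 7 (18.1, against 56.6), and was 38.1 to 57.3 in all 5 sudemycin-treated U2AF1(S34F) mice. Counts are given below also without these 4 mice, a choice made after seeing the data. Recipients of a genotype may also share a pool of donor marrow, and genotype cannot be told apart from the donor pool. The defining B cell marker *Cd79a* was detected in every mouse, at 1.87 CPM or more.

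The first question was what sudemycin D6 did to these genes in each genotype. *Siglech*, the plasmacytoid lectin, was at 19.0, 6.50, 12.2, 7.76 and 10.6 CPM in vehicle-treated U2AF1(WT) mice 1 to 5 and at 7.28, 2.43, 2.69, 6.54 and 3.6 CPM in the sudemycin-treated ones. The same gene was at 10.6, 13.3, 8.49, 3.54 and 3.75 CPM in vehicle-treated U2AF1(S34F) mice and at 3.33, 2.98, 1.96, 5.26 and 1.94 CPM with the drug. The drug groups were the lower in both genotypes, with 1 or more mice overlapping in each. The fitted log2 change was -1.32 ± 0.36 (SE) in U2AF1(WT) mice, 2.49-fold lower, which missed the 10% threshold (FDR 0.103), and -1.35 ± 0.41 in U2AF1(S34F) mice, 2.55-fold lower (FDR 0.0787, by edgeR's quasi-likelihood test, Benjamini-Hochberg adjusted). In the bulk marrow, fewer cells of a type and less RNA per cell cannot be told apart. In U2AF1(S34F) mice the call was lost on leaving out 7 of the 10 mice in turn (FDR 0.0501 to 0.161), while the log2 change stayed between -1.62 and -1.09. A model of all 20 mice with genotype as a term, added after seeing the data, gave -1.32 ± 0.29 for the drug (FDR 0.00564), where 15.0% of all genes were called.

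**Figure D1:**
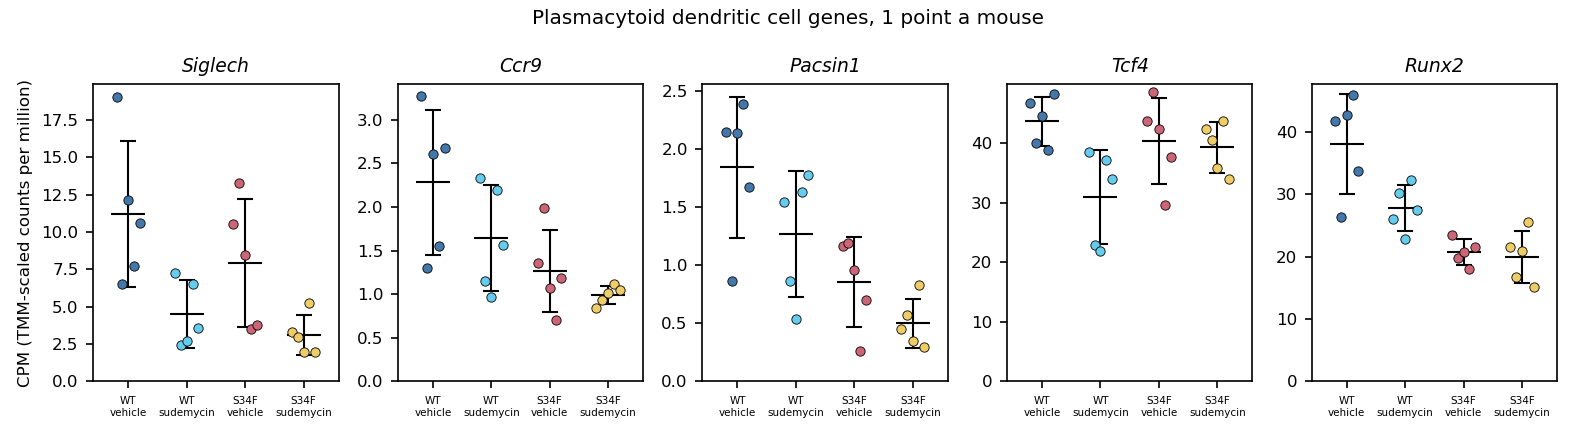
Level of each plasmacytoid gene in CPM (y axis) by group (x axis), 1 point a mouse, with the mean and SD of 5 mice as bars. *Siglech* was lower with sudemycin in both genotypes, *Runx2* was lower in every vehicle-treated U2AF1(S34F) mouse than in any vehicle-treated U2AF1(WT) mouse, and *Tcf4* was lowest with the drug in U2AF1(WT) mice.

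*Ccr9* and *Pacsin1* moved by genotype. *Ccr9* was at 3.27, 1.30, 2.61, 1.56 and 2.68 CPM in vehicle-treated U2AF1(WT) mice and at 1.36, 1.98, 1.07, 0.707 and 1.19 CPM in vehicle-treated U2AF1(S34F) mice. *Pacsin1* was at 2.14, 0.864, 2.14, 2.39 and 1.67 CPM in the former and at 1.16, 1.19, 0.960, 0.265 and 0.700 CPM in the latter. The groups overlapped for both genes through U2AF1(WT) mouse 2, one of the mice low in B cell markers, and for *Ccr9* also through mouse 4. *Ccr9* was 1.80-fold lower in U2AF1(S34F) mice under vehicle (log2 -0.85 ± 0.29, FDR 0.0414) and 1.65-fold lower under sudemycin (-0.72 ± 0.26, FDR 0.0561). The first call was lost without U2AF1(WT) mouse 1 (FDR 0.115), and the second without U2AF1(WT) mouse 6 or 10 or U2AF1(S34F) mouse 2 or 6 in turn (FDR 0.102 to 0.131). For *Pacsin1* the fold was 2.12 lower under vehicle (-1.08 ± 0.35, FDR 0.0325) and 2.45 lower under sudemycin (-1.29 ± 0.36, FDR 0.0201). With sudemycin *Ccr9* was at 0.965 to 2.33 CPM in U2AF1(WT) mice and at 0.836 to 1.11 CPM in U2AF1(S34F) mice, and *Pacsin1* at 0.539 to 1.78 and 0.298 to 0.829 CPM. Neither passed the test for the drug in either genotype, with log2 changes of -0.48 and -0.34 for *Ccr9* (95% intervals -1.09 to 0.13 and -0.81 to 0.12) and -0.53 and -0.74 for *Pacsin1* (-1.21 to 0.14 and -1.46 to -0.01). The last interval leaves out 0, but the unadjusted p of the quasi-likelihood test was 0.0688. The intervals use a normal quantile and are narrower than that test. *Pacsin1* rested on 15 to 115 reads a mouse.

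The transcription factors differed in their pattern. *Runx2* was at 41.8, 26.3, 42.6, 45.9 and 33.8 CPM in vehicle-treated U2AF1(WT) mice and at 23.5, 19.7, 20.8, 18 and 21.5 CPM in vehicle-treated U2AF1(S34F) mice. These groups did not overlap, and the mutant group was 1.85-fold lower (log2 -0.89 ± 0.14, FDR 0.000569). Under sudemycin *Runx2* was at 22.9 to 32.3 CPM in U2AF1(WT) mice and at 15.1 to 25.5 CPM in U2AF1(S34F) mice, 1.40-fold lower with overlap (-0.48 ± 0.14, FDR 0.0234). Both genotype calls were kept on leaving out each mouse in turn. The drug changed the fitted level by -0.47 ± 0.14 in U2AF1(WT) mice (FDR 0.143) and by -0.06 ± 0.13 in U2AF1(S34F) mice (FDR 0.836). *Tcf4* was at 46.7, 40.0, 44.5, 38.8 and 48.3 CPM in vehicle-treated U2AF1(WT) mice and at 38.5, 23.0, 21.9, 37.2 and 34 CPM in the sudemycin-treated ones. These groups did not overlap (2.26% of all genes were lower without overlap), though 38.8 CPM in the lowest vehicle mouse was next to 38.5 CPM in the highest drug mouse, and the lowest mice, 8 and 9, were those low in B cell markers. The log2 change of *Tcf4* was -0.51 ± 0.16 (FDR 0.148), and -0.30 (FDR 0.0827) without the 4 mice low in B cell markers. In U2AF1(S34F) mice *Tcf4* was at 43.6, 48.5, 42.3, 29.5 and 37.7 CPM with vehicle and at 42.3, 40.5, 35.8, 43.7 and 33.9 CPM with the drug, and the difference was -0.04 ± 0.12. It did not pass the test by genotype under either treatment (-0.13 ± 0.11 and 0.34 ± 0.16).

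*Runx2* is also made by bone-forming cells, so stromal and bone markers are given beside it. Of 10 such genes, 1 was higher and 2 were lower by genotype under vehicle, with *Col1a1* at -1.14 ± 0.18 (FDR 0.000657), and the summed CPM of the list was 107 to 166 in U2AF1(WT) and 121 to 223 in U2AF1(S34F) mice with vehicle. The osteoblast marker *Bglap* had 0 to 6 reads a mouse in any group and *Sp7* 0.119 to 0.847 CPM. Reads from the distal start of *Runx2*, the one known from bone, numbered 16 over the 5 vehicle-treated U2AF1(WT) mice and 23 over the vehicle-treated U2AF1(S34F) mice, beside 1175 and 547 reads on the junction that leaves the proximal start exon (chr17:44861850-44872182).

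**Figure D2:**
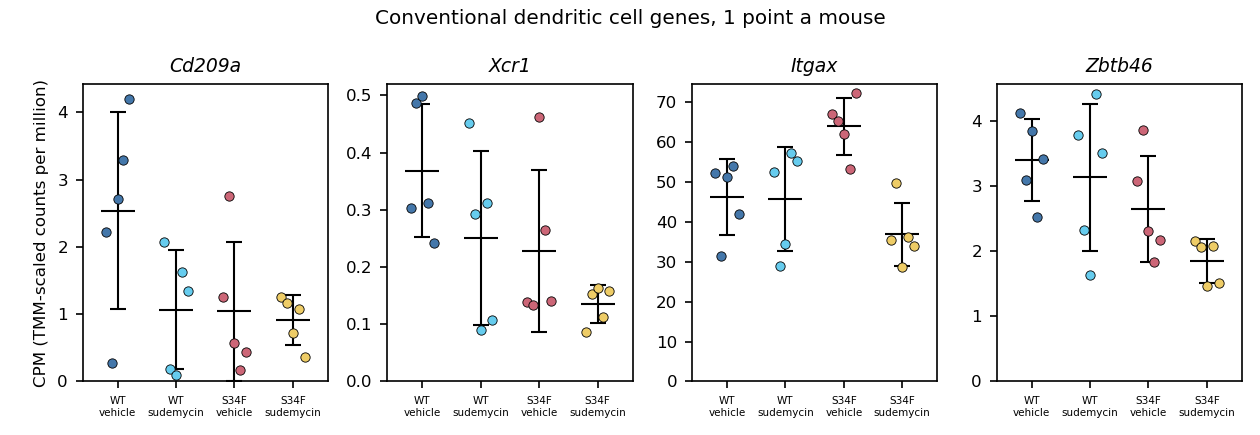
Level of each conventional gene in CPM (y axis) by group (x axis), 1 point a mouse, with the mean and SD of 5 mice as bars. *Itgax* was highest in vehicle-treated U2AF1(S34F) mice (53.2 to 72.3 CPM) and lowest with the drug in the same genotype (28.7 to 49.8 CPM), and *Cd209a* varied most within groups.

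Of the conventional genes, *Itgax* (CD11c) gave the clearest drug difference. It was at 67.0, 65.2, 61.9, 53.2 and 72.3 CPM in vehicle-treated U2AF1(S34F) mice and at 35.6, 49.8, 28.7, 36.3 and 34 CPM with sudemycin. The groups did not overlap, where 3.97% of all genes were lower without overlap, and the drug group was 1.74-fold lower (log2 -0.80 ± 0.13, FDR 0.00648), with an FDR of at most 0.0215 on leaving out any mouse. In U2AF1(WT) mice it was at 52.4, 31.3, 51.2, 54.0 and 42.1 CPM with vehicle and at 52.4, 29.0, 34.4, 57.2 and 55.2 CPM with the drug, a difference of -0.03 ± 0.20 (95% interval -0.43 to 0.37) that took the other sign without the mice low in B cell markers (0.13). The drug effects differed between the genotypes by -0.78 ± 0.26 in a model of all mice, at an unadjusted p of 0.00702 but an FDR of 0.427. Without the 4 mice low in B cell markers that difference was -0.97 (FDR 0.0414). By genotype under vehicle *Itgax* was the only member higher in U2AF1(S34F) mice, 1.37-fold (0.46 ± 0.14, FDR 0.0222), and under sudemycin it did not pass (-0.32 ± 0.20, FDR 0.259).

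NK cells and macrophages also make CD11c, so T, NK and macrophage markers are given beside *Itgax*. *Ncr1* was at 4.61 to 11.3 CPM with vehicle in U2AF1(WT) mice, and at 8.21 to 22.7 CPM in U2AF1(S34F) mice given vehicle (log2 0.96 ± 0.34, FDR 0.0538), and *Klrb1c* rose by 1.19 ± 0.30 (FDR 0.0125). With sudemycin *Ncr1* was at 7.41 to 12.8 CPM in U2AF1(S34F) mice (-0.74 ± 0.28, FDR 0.144). Of the 10 T and NK markers 3 were higher and 1 lower by genotype under vehicle, and 3 were lower with the drug in U2AF1(S34F) mice, and their summed CPM was 68.4 to 95.1, 66.7 to 109, 90.1 to 126 and 79.0 to 99.7 in the groups as listed above. Of 10 macrophage markers 3 were higher and 1 lower by genotype under vehicle. With the drug 1 was lower in U2AF1(WT) mice and 0 were called in U2AF1(S34F) mice. Their summed CPM was 517 to 539, 499 to 638, 549 to 670 and 518 to 672 in the same groups. The part of NK cells, monocytes and macrophages in the *Itgax* values was not tested.

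*Zbtb46*, the lineage factor, was at 4.12, 3.1, 3.84, 2.53 and 3.42 CPM in vehicle-treated U2AF1(WT) mice, at 3.78, 2.33, 1.64, 4.41 and 3.51 CPM in sudemycin-treated ones, at 3.08, 3.87, 2.31, 1.84 and 2.17 CPM in vehicle-treated U2AF1(S34F) mice and at 2.16, 2.07, 1.47, 2.07 and 1.51 CPM with both. The last group was the lowest. By genotype *Zbtb46* was 1.69-fold lower under sudemycin (log2 -0.75 ± 0.26, FDR 0.0476), a call lost without U2AF1(WT) mouse 10 or U2AF1(S34F) mouse 9 or 12 in turn (FDR 0.106 to 0.117), and under vehicle the difference was -0.37 ± 0.21 (FDR 0.191). *Cd209a*, the lectin, spanned 0.270 to 4.20 CPM in vehicle-treated U2AF1(WT), 0.0898 to 2.07 in sudemycin-treated U2AF1(WT), 0.177 to 2.76 in vehicle-treated U2AF1(S34F) and 0.357 to 1.25 CPM in sudemycin-treated U2AF1(S34F) mice. Within a group its highest mouse was 3.51 to 23.0 times its lowest, and no difference of *Cd209a* by genotype or drug alone passed the test (log2 changes -1.28 to -0.18, FDR 0.217 or higher). Its lowest mouse in each of the first 3 groups was one low in B cell markers. *Xcr1* was at 0.242 to 0.498, 0.0898 to 0.452, 0.134 to 0.462 and 0.0871 to 0.163 CPM in these groups in turn, and was too low to enter the genotype test under sudemycin and the drug test in U2AF1(S34F) mice.

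Counted over the list, sudemycin called 0 of the 9 members in U2AF1(WT) mice, where 3.07% of all 14763 genes tested were called (1.89% lower), and 2 of the 8 tested in U2AF1(S34F) mice, where 10.8% were called (5.85% lower). In the first comparison 3 members had an unadjusted p under 0.05 (13.3% of all genes did). DESeq2, which also called more genes in all, called 3, *Siglech*, *Tcf4* and *Runx2*, all lower. The fitted change was negative for all 9 in U2AF1(WT) mice and for all 8 in U2AF1(S34F) mice, with medians of -0.49 and -0.43 beside 0.0040 and -0.0091 over all genes tested. For *Itgax* and *Zbtb46* the negative sign in U2AF1(WT) mice was not stable, turning to 0.13 and 0.15 without the mice low in B cell markers. No interaction of drug and genotype passed the test for a member, and 2 of 15392 genes (0.0130%) passed in all. At an unadjusted p under 0.05 the interaction held for *Itgax* and *Tcf4* (7.43% of all genes), and DESeq2 called 0 members. By this model the drug effect on *Siglech* differed by -0.04 ± 0.53 between the genotypes (95% interval -1.09 to 1.0), too wide to say that it was alike. Of 10 B cell markers, 2 were lower with the drug in U2AF1(WT) mice, *Vpreb1* (log2 -2.23 ± 0.55, FDR 0.0600) and *Igll1* (-2.46 ± 0.66, FDR 0.0982), both parts of the receptor of early B cells. In U2AF1(S34F) mice 2 were lower, *Igll1* (-2.10 ± 0.65, FDR 0.0822) and *Rag1* (-2.98 ± 0.78, FDR 0.0514), a recombinase of early lymphoid cells. The part of B lineage cells in the drug values of *Siglech* and *Tcf4* was not tested.

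**Figure D3:**
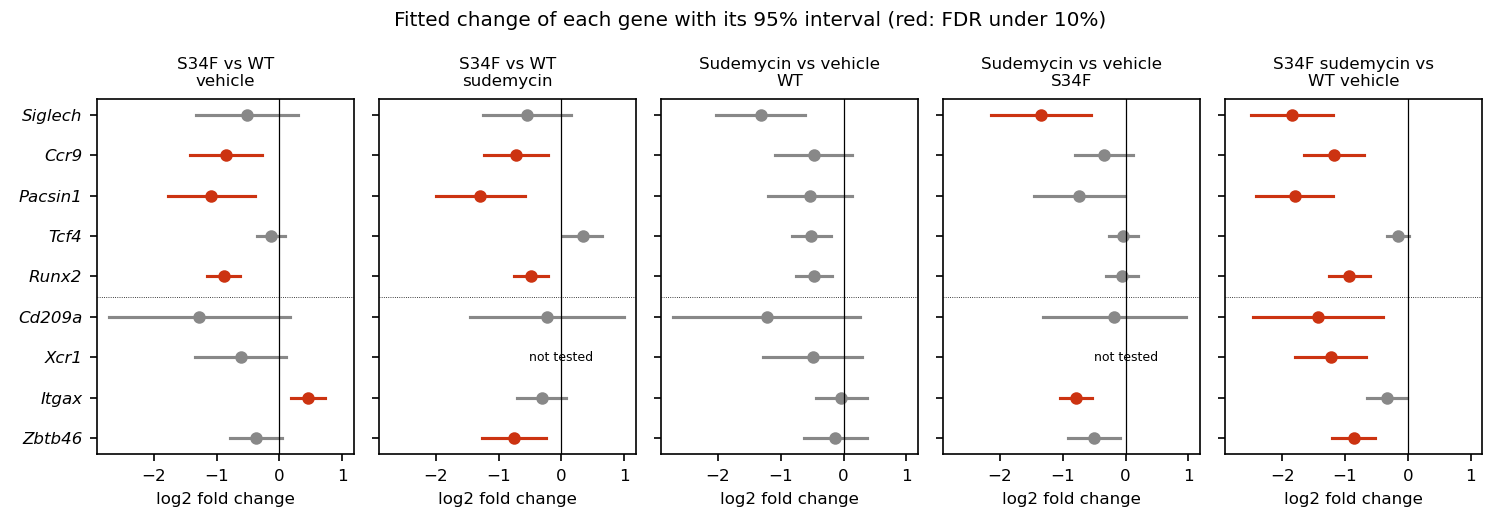
Fitted log2 fold change (x axis) of each gene (rows) in 5 comparisons, with 95% intervals by a normal quantile (narrower than the test), red where FDR<10%. Most points lie left of 0, and *Itgax* under vehicle is the only gene called higher in U2AF1(S34F) mice.

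By genotype, 4 of the 9 members were called under vehicle (3 plasmacytoid genes lower, *Itgax* higher), where 39.5% of all genes tested were called (19.8% lower, 19.7% higher), and 4 of the 8 tested under sudemycin, all lower, where 36.8% were called (19.6% lower). Under sudemycin 2 of the 4, *Ccr9* and *Zbtb46*, were lost on leaving out single mice, as given above. In either direction, calls were about as frequent among the members as among all genes. Lower calls took a larger share of the members than of all genes, but this rests on few genes and was not tested. Their groups did not overlap for 1 member lower under vehicle, *Runx2*, where 10.3% of all genes were lower without overlap, and for 0 under sudemycin, where 9.30% were. Without the mice low in B cell markers, 5 and 7 members were called. The share of all genes called in those fits is not given here, so the rise is not read as a result about the members.

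The study also asked what the mutation and the drug did together. Sudemycin-treated U2AF1(S34F) mice against vehicle-treated U2AF1(WT) mice had 7 of the 9 members called, all lower, where 50.2% of all 14761 genes were called and 25.1% called lower. *Siglech* was 3.59-fold lower (log2 -1.84 ± 0.34, FDR 0.00152) and *Pacsin1* 3.48-fold lower (-1.80 ± 0.31, FDR 0.000690). *Ccr9* was 2.26-fold, *Runx2* 1.90-fold, *Zbtb46* 1.82-fold, *Xcr1* 2.34-fold and *Cd209a* 2.69-fold lower. The *Cd209a* call was lost without U2AF1(WT) mouse 5 (FDR 0.106). *Tcf4* (-0.15 ± 0.09, 95% interval -0.33 to 0.02) and *Itgax* (-0.33 ± 0.16, -0.64 to -0.01) did not pass. The *Itgax* interval leaves out 0, but its unadjusted p by the quasi-likelihood test was 0.0659. The groups did not overlap for 6 members, *Siglech*, *Ccr9*, *Pacsin1*, *Runx2*, *Xcr1* and *Zbtb46*, where 12.3% of all genes were lower without overlap. The median log2 change over the 9 was -1.17, beside -0.0032 over all genes tested. All 10 B cell markers were lower in the same comparison (median -1.60), and their part in these values was not tested. Without vehicle-treated U2AF1(WT) mouse 2, the mouse low in these markers, 8 members were called, and 8373 genes in all. This comparison shares its mice with those above, so it is not further evidence for them.

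Other dendritic cell genes did not all follow the members. Among 20 further plasmacytoid genes, 3 were lower and 2 higher with sudemycin in U2AF1(WT) mice (18 tested, median -0.40), and 1 lower and 3 higher in U2AF1(S34F) mice (18 tested, median -0.27). *Irf7*, the master factor of the interferon response, was lower with the drug in both genotypes (-0.84 ± 0.19, FDR 0.0521, and -1.09 ± 0.15, FDR 0.00211). *Klra17* (0.73 ± 0.12, FDR 0.00799, and 1.08 ± 0.13, FDR 0.00123) and the RNA sensor *Tlr7* (0.43 ± 0.10, FDR 0.0501, and 0.79 ± 0.13, FDR 0.00691) were higher in both. The DNA sensor *Tlr9* was lower in U2AF1(WT) mice (-0.76 ± 0.19, FDR 0.0653), with 0.43 ± 0.32 in U2AF1(S34F) mice, and the interaction for *Tlr9* was not called. By genotype 8 of these genes were lower under vehicle and 5 under sudemycin, and 0 were higher. *Tlr9* (-1.83 ± 0.28), *Cd300c* (-2.04 ± 0.33) and *Cbfa2t3* (-1.34 ± 0.17) led under vehicle and *Spib* (-1.39 ± 0.43), *Lag3* (-0.99 ± 0.30) and *Ly6d* (-0.94 ± 0.34) under sudemycin.

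**Figure D4:**
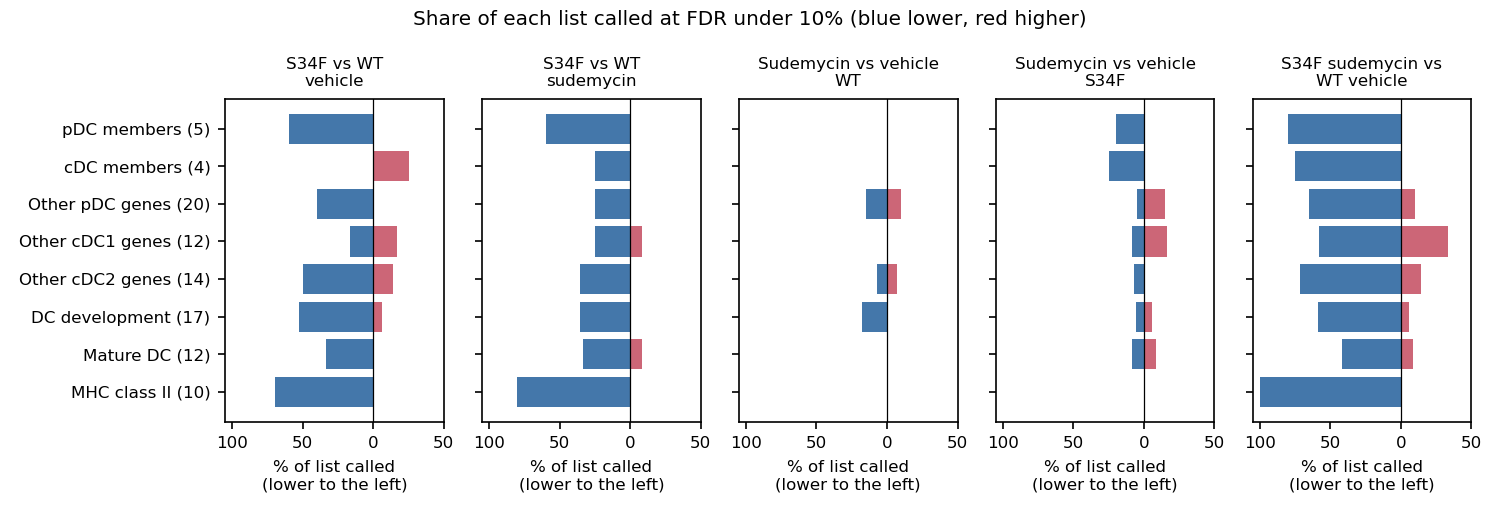
Share of each gene list (rows, size in brackets) called at FDR<10% in 5 comparisons, lower to the left in blue and higher to the right in red. MHC class II genes were lower by genotype (7 and 8 of 10) and not called for the drug, while other plasmacytoid and cDC1 genes went both ways with the drug in U2AF1(S34F) mice.

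Among 12 further cDC1 genes the receptor *Clec9a*, which senses dead cells, was higher with sudemycin in U2AF1(S34F) mice (3.33 to 4.62 CPM against 5.97 to 10.9 CPM, log2 1.07 ± 0.15, FDR 0.00232), as was *Naaa* (0.89 ± 0.15, FDR 0.00889), and *Itgae* was lower (-0.87 ± 0.26, FDR 0.0721). In U2AF1(WT) mice 0 of the 12 were called for the drug. The cDC1 factor *Batf3* was lower (-0.93 ± 0.29, FDR 0.0284) and *Id2* higher (0.54 ± 0.08, FDR 0.000654) by genotype under vehicle. Of 14 cDC2 genes 7 were lower and 2 higher by genotype under vehicle, led by *Clec4a4* (-1.44 ± 0.34), *Irf4* (-0.97 ± 0.26) and *Klf4* (-0.87 ± 0.21), and 5 lower under sudemycin. With the drug, *Clec10a* was lower (-0.60 ± 0.13, FDR 0.0380) and *Mgl2* higher (0.49 ± 0.13, FDR 0.0809) in U2AF1(WT) mice, and *Cd7* was lower (-0.68 ± 0.18, FDR 0.0490) in U2AF1(S34F) mice.

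Of 17 genes of dendritic cell development, the receptor *Flt3* was lower with the drug in both genotypes (-0.66 ± 0.13, FDR 0.0203, and -0.52 ± 0.14, FDR 0.0456). *Zeb2* (-0.59 ± 0.12) and *Nfil3* (-0.47 ± 0.09) were lower in U2AF1(WT) mice, and *Csf2rb* was higher in U2AF1(S34F) mice (0.49 ± 0.08, FDR 0.00623). By genotype 9 were lower and 1 higher under vehicle, with the monocyte and macrophage receptor *Csf1r* at -0.85 ± 0.13 (FDR 0.000422), and 6 were lower under sudemycin. Of 10 genes of MHC class II presentation 7 were lower by genotype under vehicle and 8 under sudemycin, with *Cd74* at -1.21 ± 0.37 (FDR 0.0344) and -1.38 ± 0.28 (FDR 0.00485), and 0 were called for the drug in either genotype, while all 10 were lower with mutation and drug together (median -1.38). Of 12 genes of mature dendritic cells 4 were lower by genotype under vehicle, led by *Cd80* (-0.81 ± 0.13), and with the drug *Cd274*, which encodes PD-L1, was lower (-0.79 ± 0.17, FDR 0.0204) and *Cd80* higher (0.36 ± 0.10, FDR 0.0567) in U2AF1(S34F) mice. B cells also carry MHC class II, and 5 of 10 B cell markers were called lower by genotype under sudemycin and 0 under vehicle. Under vehicle the median log2 change of the B cell markers was still -0.88, with 90% of them negative. That of the MHC class II genes was -0.70. The lack of calls under vehicle therefore does not show that B cell markers were unchanged. Of 10 monocyte markers 6 were lower and 0 higher by genotype under vehicle, with *Nr4a1* at -2.86 ± 0.22 and *Ace* at -1.57 ± 0.36, and 2 were lower and 2 higher under sudemycin. Of 10 neutrophil markers 6 were higher by genotype under vehicle and 4 under sudemycin, and 0 moved with the drug, and of 10 erythroid markers 1 and 5 were lower by genotype and 2 with the drug in U2AF1(S34F) mice. The part of these cells was not tested.

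U2AF1 binds the 3′ splice site and SF3B1 the branch point before it. Reads on annotated junctions were compared within each member. *Siglech*, *Tcf4*, *Runx2*, *Cd209a* and *Itgax* had junctions with a mean of at least 10 reads to test, and *Ccr9*, *Pacsin1*, *Xcr1* and *Zbtb46* had too few. Of 66 to 70 member junctions tested in a comparison, 0 were called for the drug in either genotype (0.0111% and 0.0605% of all junctions were) and 0 by genotype under vehicle (4.37%) or sudemycin (6.75%), with limma diffSplice and with edgeR. At an unadjusted p under 0.05 there were 1, 1, 9 and 4 of them. The share of all junctions under this p was not taken, so these counts are not read as a result about the members. With mutation and drug together 2 were called (3.98% of all), 1 in *Itgax* (chr7:135279374-135279551, log2 change against the rest of the gene -3.08, FDR 0.0430) and 1 late in *Tcf4* (-0.72, FDR 0.0547), and by edgeR only the first (FDR 0.0571). Neither count was stable: it was 0 without sudemycin-treated U2AF1(S34F) mouse 2, 6 or 12 in turn, and 4 member junctions were called by genotype under sudemycin on leaving out U2AF1(WT) mouse 9. Without the mice low in B cell markers 5, 3 and 4 were called by genotype under vehicle, under sudemycin and with mutation and drug together. The share of all junctions called in those fits is not given here.

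The S34F protein is known to bind less well where a T stands just before the AG of the acceptor. The 23 bases around 5 acceptors of the members (20 of the intron, 3 of the exon, NCBI build 37) are printed with that base in capitals, for the *Itgax* junction called and the one upstream, for the *Runx2* exon that is skipped and the next exon, and for the *Siglech* acceptor with a T.
*Itgax* called (chr7:135279374-135279551, + strand): gtgcctcccctctgcccCagatc
*Itgax* upstream (chr7:135279144-135279232, + strand): ctgaggtctggacccctCaggtt
*Runx2* skipped exon (chr17:44795641-44854141, - strand): ttatgatttgctgtttcCagggc
*Runx2* next exon (chr17:44776775-44795468, - strand): tttattttttttcttccCagatc
*Siglech* with T (chr7:63027952-63032853, + strand): tgcttctcttcattcctTaggct

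The acceptors called in *Itgax* and that upstream both had C there. Of 66 acceptors of the members 21.2% had T, 74.2% C and 4.55% A, and of 113647 acceptors over all genes 31.5%, 62.4% and 5.82%. The *Siglech* acceptor with a T gave a log2 change of -0.14 by genotype under vehicle (FDR 0.963). The *Itgax* junction had 25, 36, 28, 45 and 38 reads in vehicle-treated U2AF1(WT) mice and 17, 0, 7, 13 and 0 reads in sudemycin-treated U2AF1(S34F) mice, beside 114 to 204 and 61 to 117 reads on the junction upstream. It had 21 to 28 reads in vehicle-treated U2AF1(S34F) mice, and 0 in sudemycin-treated U2AF1(WT) mouse 9 where the other mice of that group had 27 to 73.

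**Figure D5:**
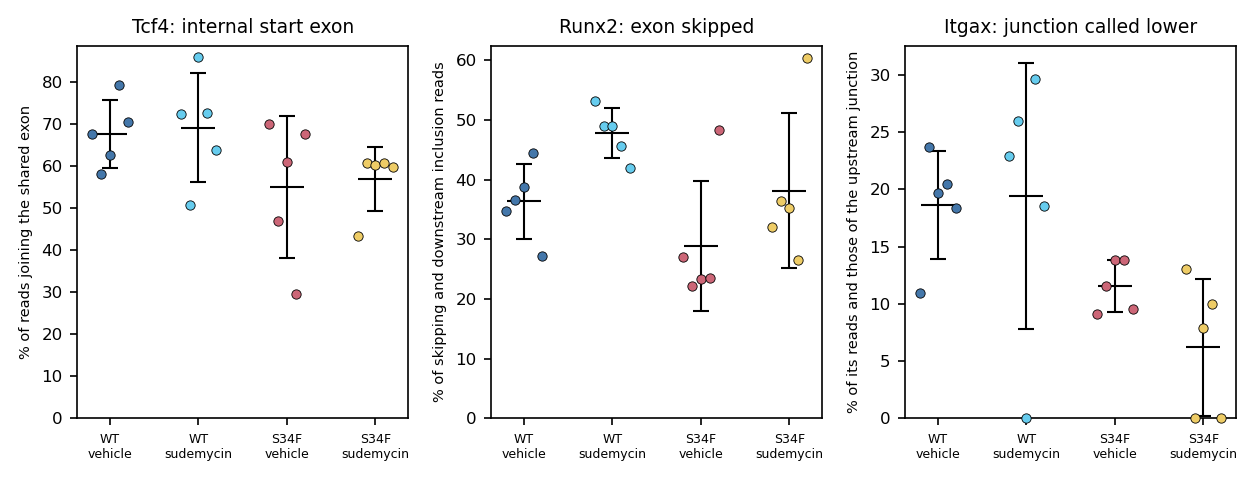
Share of reads in percent (y axis) on 1 junction of a pair by group (x axis), 1 point a mouse, with the mean and SD of 5 mice as bars: the *Tcf4* internal start against the longer transcript, skipping against inclusion of a *Runx2* exon, and the *Itgax* junction against the one upstream. Groups overlap in every panel, and 3 mice had 0 reads on the *Itgax* junction.

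Both factors had alternative forms, and neither passed the test. In *Tcf4* the internal start took 67.7% ± 8.0 (SD, n = 5) of the reads joining the shared exon in vehicle-treated U2AF1(WT) mice, 69.2% ± 13 with the drug, 55.0% ± 16.8 in vehicle-treated U2AF1(S34F) mice and 57.0% ± 7.6 with both. The junction gave a log2 change against the rest of the gene of -0.70 by genotype under vehicle (FDR 0.265) and -0.63 under sudemycin (FDR 0.346). A 174-base exon of *Runx2* (chr17:44795468-44795641) was skipped in 36.4% ± 6.3 of the reads compared in vehicle-treated U2AF1(WT) mice, 47.7% ± 4.2 with the drug, 28.9% ± 11 in vehicle-treated U2AF1(S34F) mice and 38.1% ± 13 with both. The mean was higher with the drug in both genotypes, but the mice overlapped and the skipping junction gave log2 changes of 0.20 and 0.42 at an FDR of 0.999981 and 0.999985.

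After subtraction of group means, the log2(CPM + 1) of the members varied together across the 20 mice. Of 36 pairs of members 32 had a positive Pearson r, with a median of 0.67 and the highest for *Tcf4* and *Zbtb46* (r = 0.91, Spearman rho 0.91), and the lowest for *Cd209a* and *Xcr1* (r = -0.17). These are descriptions: all genes of a mouse share a library, its depth and its mix of cells. Among 12227 genes with a mean of at least 1 CPM, *Pacsin1* was most like *Ikzf3* (r = 0.94, rho 0.90) and *Cd209a* most like *Bank1* (0.94, rho 0.94), a gene of B cells. *Tcf4* was most like *Cd28* (0.95, rho 0.96), followed by *Nsmaf*, *Eml6* and *Mef2c* (0.94 each). *Siglech* was most like *5830405N20Rik* (0.91, rho 0.94) and *Usp6nl* (0.90, rho 0.92), and *Ccr9* most like *Slc22a23* (0.90, rho 0.86) with *Aldh1a1* also among the top 5 (0.88, rho 0.93). *Runx2* was most like *Gse1* (0.92, rho 0.88) with its relative *Runx3* among the top 5 (0.88, rho 0.88), *Itgax* most like *9530072K05Rik* (0.90, rho 0.85) and *Zbtb46* most like *Arhgef12* (0.94, rho 0.91). For *Xcr1* the highest r was 0.72, with *BC023829* (rho 0.76).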

How the data were processed

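The authors sequenced ribosome-depleted, stranded total RNA, with TopHat 2.0.8 as the aligner and mm9 (NCBI build 37) as the genome. They deposited whole-number counts of reads for 37620 genes and for splice junctions, without normalization. The counting program is not given in the sources used here. Samples of a group are separate mice by their titles. The standard errors measure the spread between recipient mice, which may share pooled donors.

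The members and gene lists were chosen with earlier results of these data known. Symbols and junctions came from GENCODE M1. For genes, edgeR 4.0.16 was used under R 4.3.3 (filterByExpr, TMM, robust quasi-likelihood, prior count 2, Benjamini-Hochberg FDR<10%), each comparison on its own 10 mice and the interaction on all 20. A standard error is the size of the log2 change over the square root of F, and a 95% interval uses it with a normal quantile. Annotated junctions with a mean of at least 10 reads were tested with limma 3.58.1 (voom, diffSplice). Steps were tested on simulated counts. All 9 members were described, and in every other list up to 3 called genes with the largest change a comparison, besides markers chosen after seeing values (*Ncr1*, *Cd79a*, *Bglap*, *Sp7*, *Xist*, *Ddx3y*) and *Tlr7*, *Id2* and *Flt3* where a rule for another comparison named them. Alternatives were DESeq2 1.42.0, its size factors, other filters, one model of all mice, FDR<5%, a replicate block, other read minimums, edgeR diffSpliceDGE and leaving out each mouse. The additive model and the fit without mice under 50% of their group's median in B cell markers were added after seeing the data.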

Additional observations from a re-analysis of the deposited data

How the results depend on the processing

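Sudemycin in U2AF1(WT) mice called 453 genes and 0 members, against 243 genes at FDR<5%, 844 genes and 3 members by DESeq2, 1072 genes and 3 members in one model of all mice, and 1 member with at least 1 CPM in 5 mice. In U2AF1(S34F) mice the drug called 1588 genes and 2 members, against 826 genes and 1 member at FDR<5%, 1 member without a filter on low counts and 788 genes in one model. The interaction called 2 genes, against 116 by DESeq2, 10 without a filter and 8 with at least 1 CPM. By edgeR diffSpliceDGE 1885, 2698, 28, 44 and 1962 junctions were called by genotype under vehicle, under sudemycin, for the drug in U2AF1(WT), in U2AF1(S34F) and with mutation and drug together, and with at least 20 reads 24 for the drug in U2AF1(WT). *Cd209a* with mutation and drug together lost its call without a filter and in one model.

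Chosen after seeing the data, the additive model called 8180 genes for genotype and 2309 genes and 1 member for the drug. By genotype it gave 0.11 for *Tcf4* and 0.081 for *Itgax*. It fits 1 genotype effect over both treatments. These values therefore lie between the opposite signs under vehicle and sudemycin (-0.13 and 0.34 for *Tcf4*, 0.46 and -0.32 for *Itgax*). Leaving out the 4 mice low in B cell markers gave 7 members by genotype under sudemycin, with the share of all genes not given. It gave 1592 genes, 3 members and 8 junctions for the drug in U2AF1(WT) mice, and 33 genes and 1 member for the interaction. It turned *Itgax* (0.13) and *Zbtb46* (0.15) for the drug in U2AF1(WT) and *Ccr9* (-0.15) in the interaction. The causes of the changes without these 4 mice were not tested.

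Leaving out 1 mouse at a time gave 191 (without vehicle mouse 1) to 730 genes (without vehicle mouse 2) and 0 to 2 members for the drug in U2AF1(WT) mice, and 913 (without drug mouse 2) to 1736 genes (without vehicle mouse 5) and 1 to 3 members in U2AF1(S34F) mice. The interaction called 2 to 87 genes, the most without U2AF1(S34F) vehicle mouse 5. Junctions numbered 2021 to 6981 by genotype under vehicle, 3913 to 12547 under sudemycin (the most without U2AF1(WT) mouse 9), 7 to 23 for the drug in U2AF1(WT) and 1945 to 6628 with mutation and drug together. Signs turned for changes near 0: *Cd209a* by genotype under sudemycin (-0.50 to 0.15) and for the drug in U2AF1(S34F) (-0.44 to 0.56), *Itgax* (-0.14 to 0.10) and *Zbtb46* (-0.28 to 0.030) for the drug in U2AF1(WT), *Tcf4* (-0.13 to 0.030) and *Runx2* (-0.16 to 0.028) in U2AF1(S34F), and *Siglech* (-0.32 to 0.22), *Ccr9* (-0.041 to 0.34) and *Xcr1* (-0.31 to 0.24) in the interaction. Calls were lost for *Ccr9* in 4 and *Zbtb46* in 3 of 10 fits by genotype under sudemycin, for *Ccr9* in 1 under vehicle and for *Cd209a* in 1 with mutation and drug together.

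With the replicate number as a block, on the numbers both groups share, genotype called 4632 genes and 4 members under vehicle and 3734 genes and 5 members under sudemycin, where *Siglech* (FDR 0.0483) and *Itgax* (FDR 0.0483) passed and *Ccr9* (FDR 0.134) did not. Deviations of same-numbered mice correlated by 0.12, 0.15 and -0.11 under vehicle and -0.04, 0.27, 0.37 and -0.18 under sudemycin. The pairs numbered 3 under vehicle and 10 under sudemycin lay above the same U2AF1(WT) mouse with other numbers (at most 0.042 and 0.33). The other pairs did not. Whether a number marks a shared batch or day cannot be told from so few pairs. Depth limits *Xcr1* (4 to 27 reads), *Pacsin1* and every junction with few reads.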
